A study of Mus musculus with 7 samples.

Results

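The genes of chemokines, interleukins, tumour necrosis factor and their receptors were examined for chromatin accessibility in young and aged mouse liver. The members were the protein-coding genes of GENCODE M21 whose symbols start with Ccl, Cxcl, Ccr or Cxcr and a number, whose symbols are Il with a number and up to a short suffix, and Tnf, Tnfrsf1a and Tnfrsf1b, which gave 137 genes. These were 35 chemokine ligands, 17 chemokine receptors, 39 interleukin ligands, 41 interleukin receptors, 2 secreted inhibitors and 3 genes of the TNF system. Of the 55680 accessible regions counted in the study, 203 overlapped a member gene or the 5000 bp on either side of it, and 4 of these regions were shared by a pair of member genes. The pattern of symbols also took in Il4i1, which encodes an L-amino acid oxidase and not an interleukin, and it was left in place.

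Chemokines are small secreted proteins that direct the migration of leukocytes through G protein-coupled receptors. Interleukins and TNF carry signals between immune and tissue cells, many of them through receptor chains that are shared by several ligands. In the liver, hepatocytes respond to interleukin-6 by secreting acute phase proteins, and resident macrophages, the Kupffer cells, are a main source of these ligands. An accessible promoter is one in which the start site is exposed to the transposase, whether or not the gene is transcribed.

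Accessibility was measured by ATAC-seq, in which a transposase inserts sequencing adapters into exposed DNA of isolated nuclei. The young group held 3 liver samples from mice aged 3 months and the aged group held 4 from mice aged 18 months, all from male C57BL/6N mice for which no treatment and no genetic modification is named. The aged samples came from 3 animals, since 1 animal gave samples from different lobules, and the labels do not say which samples these were, so the 4 aged samples do not stand for 4 animals and the p-values for age are too small to that extent. The paper, by contrast, describes all 4 aged samples as biological replicates. The reads counted in regions summed to between 5709327 and 25461110 per young sample and to between 4474652 and 11717992 per aged sample. Values are given as CPM, the usual scaling of counts to the size of the library, here after TMM normalization, per region and not per base, and a log2 fold change is aged minus young. The ages were set against each other in edgeR's quasi-likelihood test over all 55680 regions with Benjamini-Hochberg adjustment, and regions are called higher or lower where the adjusted p was under 0.05. Each hepatocyte marker examined (7 of 7 genes), with Alb, Ttr and Hnf4a among them, had an accessible promoter. Coordinates are those of GRCm38.

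The sequences around the start sites at which the results turn are given first. They are the 250 bases before the RefSeq start site of Il6st and Ccl27a, whose promoter regions were called higher in aged liver, and of the chemokines Cxcl1, Cxcl2 and Cxcl10, whose start sites carry inflammatory motifs, each written 5′ to 3′ on the strand of the gene from RefSeq's GRCm38 annotation. Capitals mark matches, on either strand, to AP-1 (TGANTCA), STAT (TTCNNNGAA), PU.1 (GAGGAAGT), C/EBP (TTGCNNAA) or the NF-κB consensus, and the remaining bases are in lower case.
Il6st, chr13:112463820-112464069, plus strand: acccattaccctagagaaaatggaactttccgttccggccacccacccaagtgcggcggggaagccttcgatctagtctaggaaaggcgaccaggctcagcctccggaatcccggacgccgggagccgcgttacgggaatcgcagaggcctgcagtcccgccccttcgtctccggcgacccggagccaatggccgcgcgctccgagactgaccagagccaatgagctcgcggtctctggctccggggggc
Ccl27a, chr4:41774177-41774426, minus strand: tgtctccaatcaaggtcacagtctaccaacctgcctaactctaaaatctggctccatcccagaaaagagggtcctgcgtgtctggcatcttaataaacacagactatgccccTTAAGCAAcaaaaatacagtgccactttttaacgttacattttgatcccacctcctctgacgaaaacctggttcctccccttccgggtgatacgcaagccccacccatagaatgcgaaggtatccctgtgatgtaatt
Cxcl1, chr5:90890995-90891244, plus strand: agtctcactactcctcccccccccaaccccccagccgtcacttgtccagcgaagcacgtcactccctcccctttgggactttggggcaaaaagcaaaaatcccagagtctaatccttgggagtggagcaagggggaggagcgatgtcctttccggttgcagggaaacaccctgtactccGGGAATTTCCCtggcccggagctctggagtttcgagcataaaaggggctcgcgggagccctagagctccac
Cxcl2, chr5:90903649-90903898, plus strand: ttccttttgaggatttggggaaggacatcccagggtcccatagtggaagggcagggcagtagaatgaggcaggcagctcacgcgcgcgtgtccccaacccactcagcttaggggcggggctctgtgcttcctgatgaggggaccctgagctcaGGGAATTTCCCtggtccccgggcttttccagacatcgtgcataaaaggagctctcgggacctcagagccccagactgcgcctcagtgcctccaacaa
Cxcl10, chr5:92348890-92349139, minus strand: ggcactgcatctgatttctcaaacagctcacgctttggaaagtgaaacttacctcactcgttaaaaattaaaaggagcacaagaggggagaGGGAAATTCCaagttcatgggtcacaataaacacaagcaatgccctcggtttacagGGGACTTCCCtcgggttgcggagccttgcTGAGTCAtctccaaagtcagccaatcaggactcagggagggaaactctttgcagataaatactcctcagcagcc

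With the base before the start site numbered -1, the capitals in Cxcl1 span -71 to -61 and those in Cxcl2 span -97 to -87, and in both they are a pair of overlapping NF-κB matches in the same 11 letters. Cxcl10 held NF-κB matches at -159 to -150 and at -103 to -94 and an AP-1 match at -74 to -68, none of which overlapped another. The Ccl27a stretch held a C/EBP match at -138 to -131, and the Il6st stretch held no match to the 5 motifs. RefSeq gave 128 start sites for 106 of the 137 member genes. The NF-κB consensus occurred in the 250 bases before 13 of them (10.2%) and before 1281 of all 32851 start sites (3.90%). The AP-1 motif occurred before 15.6% of the member start sites and 6.75% of all, STAT before 10.9% and 7.02%, C/EBP before 15.6% and 9.56%, and PU.1 before 2.34% and 2.44%. A match in these letters describes the sequence and is not a measured binding site.

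An intronic region of Il6ra, which encodes the ligand-binding chain of the interleukin-6 receptor, was among the called member regions most reduced with age. The 300 bases in its middle, on the plus strand of the genome, are given here. No match to the 5 motifs was found in them.
Il6ra intron, chr3:89872545-89872844: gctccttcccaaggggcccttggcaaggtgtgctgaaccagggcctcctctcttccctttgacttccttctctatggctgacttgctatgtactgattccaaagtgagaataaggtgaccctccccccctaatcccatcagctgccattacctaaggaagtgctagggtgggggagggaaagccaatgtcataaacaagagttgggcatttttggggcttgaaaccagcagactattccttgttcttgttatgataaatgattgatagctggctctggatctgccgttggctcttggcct

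Accessible regions were unevenly spread over the members. At least 1 region was found at 71 of the 137 genes, and 66 genes had none, meaning that no peak there was shared by enough libraries to enter the study's region set. A promoter region, one that overlapped the 200 bp on either side of a transcript's start site, was found at 41 members (29.9%), while it was found at 13018 of the 21924 protein-coding gene symbols (59.4%). The share was 19 of 41 (46.3%) for interleukin receptors, 9 of 35 (25.7%) for chemokine ligands, 7 of 39 (17.9%) for interleukin ligands and 2 of 17 (11.8%) for chemokine receptors. Both secreted inhibitors, the interleukin-1 receptor antagonist gene Il1rn and the interleukin-18 binding protein gene Il18bp, and both TNF receptor genes had one.

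**Figure D1:**
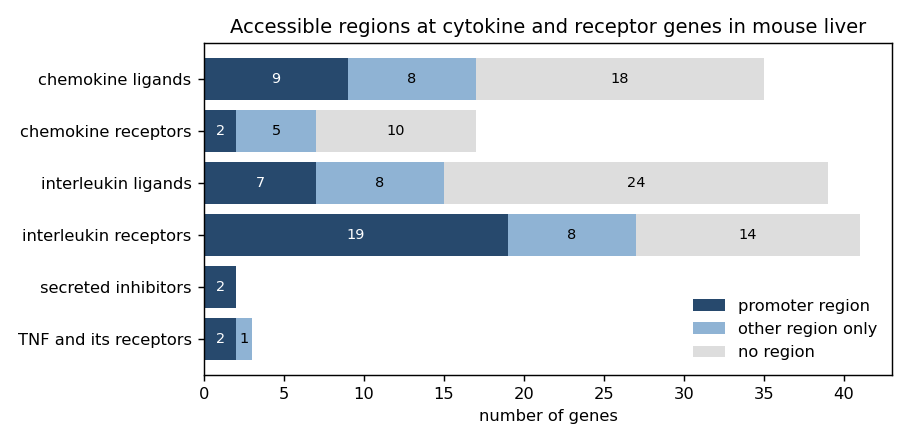
Number of member genes (x axis) in each role (y axis) with a promoter region, with only other regions, or with no region. Of the 4 roles with more than 3 genes, interleukin receptors most often had a promoter region, 19 of 41 genes, and 24 of 39 interleukin ligand genes had no region.

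The genes without a region included many ligands that activated immune cells secrete. Among interleukins these were Il1b, Il2, Il4, Il5, Il6, Il10, Il13, Il17a, Il21 and Il22 and 14 others. The cluster of Il4, Il13 and Il5 on chromosome 11 and the cluster of Il10, Il19, Il20 and Il24 on chromosome 1 held 0 regions. Among chemokines, Ccl3, Ccl4, Ccl7, Ccl8, Ccl11, Ccl19, Ccl20, Ccl22, Cxcl5 and Cxcl13 were in this group with 8 others, and among chemokine receptors Ccr1 to Ccr6, Ccr8, Cxcr2, Cxcr3 and the Ccr1-like gene Ccr1l1. Of the 6 genes in the interleukin-1 receptor cluster on chromosome 1, Il1r1 had 10 regions and the decoy receptor Il1r2 had 2, while Il1rl2, Il1rl1, Il18r1 and Il18rap had none. The 14 interleukin receptor genes without a region also included Il2rb, Il2rg, Il7r and Il21r, which encode lymphocyte receptor chains. Other lymphocyte receptor genes did have regions outside their promoters, Il2ra, Il12rb1, Il12rb2 and Ccr7 with 3 each, Cxcr5 with 4 and Cxcr6 with 2. Il27ra had 1 promoter region.

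Markers of the other cell types of the liver were read in the same way. None of 5 B cell markers, 1 of 9 T and NK cell markers (Lck), 1 of 5 neutrophil markers (Elane) and 2 of 8 macrophage and Kupffer cell markers (Clec4f and Spi1) had a promoter region, and those without one included Adgre1, Csf1r, Cd3e, Cd4, Cd8a and S100a8. It was found for 4 of 6 endothelial, 3 of 5 stellate cell and 3 of 5 cholangiocyte markers. The summed CPM at the promoter regions of the Kupffer cell and macrophage list ran from 7.29 to 9.16 in young and from 3.33 to 6.87 in aged samples, so the aged samples lay below the young ones. For the stellate list the sum ran from 22.7 to 26.6 in young and from 13.5 to 20.6 in aged samples, again without overlap, and for the hepatocyte list from 570 to 644 in young and from 688 to 814 in aged samples, where the aged samples lay above. Each of these separations rested on 1 gene or a pair. Without Apoa1 the hepatocyte sums overlapped, at 397 to 441 CPM in young and 439 to 515 CPM in aged samples, without Reln the stellate sums did so (5.26 to 6.54 CPM young, 3.14 to 5.36 CPM aged), and in the macrophage list the ages overlapped both at Clec4f and at Spi1. Conversely, the cholangiocyte sums overlapped only with Sox9 included, and without it they were at 6.02 to 6.50 CPM in young and 4.31 to 5.36 CPM in aged samples. The lists of endothelial cells (64.0 to 70.8 CPM young, 54.1 to 88.2 CPM aged), cholangiocytes (43.8 to 52.0 CPM young, 39.4 to 56.9 CPM aged), T and NK cells (10.6 to 12.8 CPM young, 10.7 to 13.6 CPM aged) and neutrophils (12.2 to 16.3 CPM young, 7.65 to 17.1 CPM aged) overlapped between ages. Of the marker promoters, that of the hepatocyte gene Apoa1 was called higher (0.53 on the log2 scale, edgeR adjusted p = 0.0331) and no other was called. The part of these shifts in the results below was not tested.

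Between ages, 14 of the 203 member regions (6.90%) were called, 5 higher and 9 lower in aged liver. Over all regions 5.74% were called, 2.44% higher and 3.30% lower, so the members' share was near that of the table as a whole. Without adjustment, 67 member regions (33.0%) had a p under 0.05, and so did 24.6% of all regions. Every aged sample lay above every young one in 24 member regions and below in 32, where 10.2% and 11.6% of all regions did so. The median log2 fold change was -0.080 over the members and -0.035 over all regions. In bulk tissue, fewer cells of a type and less accessible chromatin per cell cannot be told apart.

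These calls were sensitive to single libraries and to scaling. The number called by edgeR was 0 without young replicate 2 and 0 without aged replicate 1 (46 and 54 at an unadjusted p under 0.05), 1 without young replicate 1, 1 without aged replicate 3, 10 without young replicate 3, 13 without aged replicate 2 and 25 without aged replicate 4, of which 3 were higher and 22 lower. In the same order, 0.801%, 0.722%, 0.338%, 1.17%, 4.76%, 5.20% and 7.60% of all regions were called, so the whole table moved too. DESeq2 called 10 higher and 9 lower, the 14 included, and 8.42% of all regions. Aged samples were also summed in pairs, because 1 animal gave more than 1 of them. With these sums edgeR called from 2 member regions (aged 1 with 3, 1.73% of all regions) to 23 (aged 2 with 4, 8.52%). Each of the 14 was lost in some fit, and the number of alternative fits that kept a call ran from 5 of 21 at Il6st to 18 of 21 at an exonic region of Il16. The split was 0 higher and 18 lower with total counts as library size, which moved the median of all regions to -0.15, and 22 higher and 11 lower with offsets fitted on GC content. Of all regions, 6.24% were called with total counts and 13.3% with the GC offsets.

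**Figure D2:**
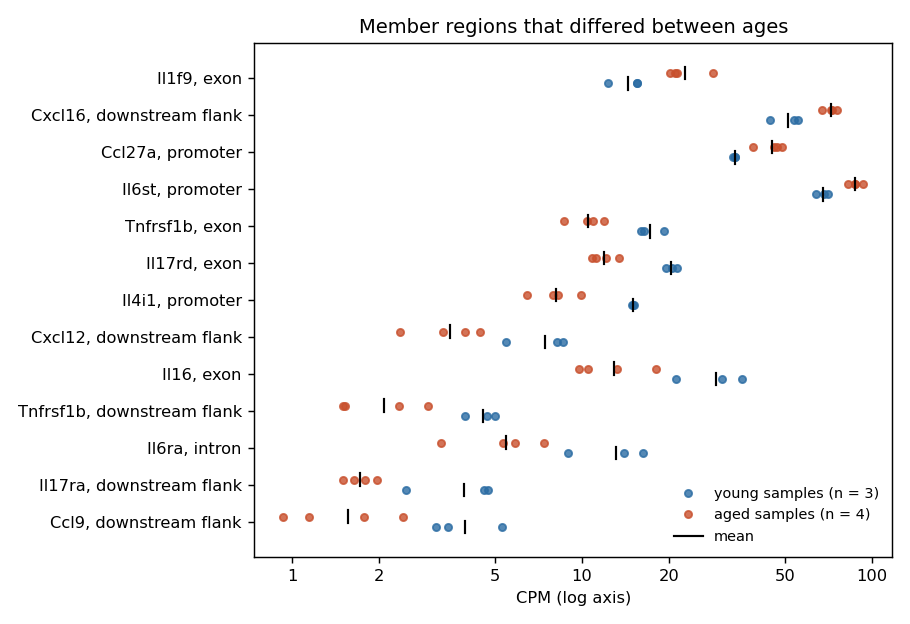
CPM on a log axis (x) for 13 of the 14 member regions called between ages (y), with 1 point per sample, 3 young and 4 aged, and a bar at the mean of each age. The ages did not overlap in any of the 13 regions drawn, with the 4 higher ones at the top and the 9 lower ones below.

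The largest reductions lay outside promoters. The Ccl9 gene encodes a myeloid chemokine that acts through Ccr1, and a region chr11:83569945-83570471 in its downstream flank held 5.28, 3.44 and 3.12 CPM in young replicates 1 to 3 and 1.14, 1.77, 0.934 and 2.42 CPM in aged replicates 1 to 4 (log2 fold change -1.32, standard error 0.357, edgeR adjusted p = 0.0457). The aged samples were all lower, the highest of them at 2.42 CPM and the lowest young one at 3.12 CPM, and only 1 of the 7 fits that left out a sample kept the call. The Ccl9 promoter was at 11.5 ± 1.17 CPM in the young (SD, n = 3) and 11.1 ± 0.947 CPM in the aged samples (SD, n = 4) (log2 fold change -0.034, edgeR adjusted p = 0.930).

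For Il17ra, the receptor chain shared by most interleukin-17 ligands, a downstream region chr6:120492446-120493158 held 4.72, 4.57 and 2.47 CPM in young replicates 1 to 3 and 1.49, 1.96, 1.63 and 1.78 CPM in aged replicates 1 to 4 (log2 fold change -1.25, standard error 0.316, edgeR adjusted p = 0.0365). It is a weak region in which young replicate 3 was closest to the aged samples. All 5 regions of Il17ra had a negative log2 fold change, from -1.25 to -0.17. A second promoter region at an internal start site, chr6:120473535-120473851, held 7.03, 4.61 and 4.11 CPM in young replicates 1 to 3 and 2.196, 1.77, 3.502 and 2.80 CPM in aged replicates 1 to 4. Its ages did not overlap, but it was not called (log2 fold change -1.06, edgeR adjusted p = 0.0547), and the main Il17ra promoter was at 32.97 ± 1.89 CPM in the young (SD, n = 3) and 29.2 ± 2.696 CPM in the aged samples (SD, n = 4) (log2 fold change -0.17).

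Il6ra had 9 regions, 1 of which was called. The intronic region whose middle is printed above, chr3:89872248-89873141, held 8.98, 16.3 and 13.98 CPM in young replicates 1 to 3 and 5.36, 5.88, 3.27 and 7.38 CPM in aged replicates 1 to 4 (log2 fold change -1.23, standard error 0.265, edgeR adjusted p = 0.0204). Aged liver had less than any young sample there, and 4 of the 7 fits without a sample kept the call. The Il6ra promoter held 53.7, 65.2 and 55.9 CPM in young replicates 1 to 3 and 65.5, 65.5, 76.6 and 76.1 CPM in aged replicates 1 to 4. There the aged samples lay above the young ones by a small margin, and the difference was not called (log2 fold change 0.28, edgeR adjusted p = 0.159). A region in the downstream flank of Il6ra had a log2 fold change of -0.63 (edgeR adjusted p = 0.123) with overlap, and the other 6 ran from -0.27 to 0.15.

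The reduction called in most alternative fits was at Il16, which encodes a chemoattractant for CD4-bearing cells. An exonic region chr7:83644058-83646421 held 30.3, 35.6 and 21.05 CPM in young replicates 1 to 3 and 9.75, 18.04, 10.5 and 13.2 CPM in aged replicates 1 to 4 (log2 fold change -1.20, standard error 0.218, edgeR adjusted p = 0.0121). The aged samples lay below the young ones, and the call was kept in 18 of 21 alternative fits, with an adjusted p of up to 0.0629 in the others. A weak promoter region of Il16 at an internal start site, at 4.63 ± 0.838 CPM in the young (SD, n = 3) and 3.31 ± 1.73 CPM in the aged samples (SD, n = 4), overlapped between ages (log2 fold change -0.44, edgeR adjusted p = 0.467).

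An exonic region of Il17rd, chr14:27101237-27102308, held 21.2, 19.4 and 20.4 CPM in young replicates 1 to 3 and 10.8, 11.2, 12.1 and 13.4 CPM in aged replicates 1 to 4 (log2 fold change -0.78, standard error 0.155, edgeR adjusted p = 0.0160). Il17rd is a receptor-like member of the interleukin-17 receptor family. The samples of each age were close together there, and the call was kept in 17 of 21 alternative fits. Offsets fitted on mean abundance remove any trend of fold change with region strength. With them 1.25% of all regions were called, and 3 member regions, all lower. These were the Il16 and Il17rd exonic regions and an exonic region of Tnfrsf1a at chr6:125362240-125364722, which was not called with TMM alone (log2 fold change -0.57, edgeR adjusted p = 0.0648).

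Cxcl12 encodes the ligand of Cxcr4. Of its 5 regions, the one in the downstream flank, chr6:117182599-117183582, held 8.61, 5.48 and 8.22 CPM in young replicates 1 to 3 and 3.95, 2.35, 4.44 and 3.31 CPM in aged replicates 1 to 4 (log2 fold change -1.05, standard error 0.274, edgeR adjusted p = 0.0407). Young replicate 2 was the lowest young sample and still lay above all aged ones, and the call was kept in 9 of 21 alternative fits. The Cxcl12 promoter held 89.4, 92.1 and 105 CPM in young replicates 1 to 3 and 105, 113, 109 and 124 CPM in aged replicates 1 to 4. Its aged samples were above the young ones, with aged replicate 1 nearly level with young replicate 3, and it was not called (log2 fold change 0.25, edgeR adjusted p = 0.185).

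A promoter region of Il4i1 at an internal start site, chr7:44839258-44840285, held 14.8, 15.1 and 14.96 CPM in young replicates 1 to 3 and 8.26, 6.47, 7.94 and 9.93 CPM in aged replicates 1 to 4 (log2 fold change -0.86, standard error 0.184, edgeR adjusted p = 0.0203). The young samples were nearly equal and the aged ones lower. The first Il4i1 start site lies in a region that is also the promoter of Atf5 and Nup62, at 55.5 ± 7.98 CPM in the young (SD, n = 3) and 63.1 ± 6.74 CPM in the aged samples (SD, n = 4) (log2 fold change 0.18, edgeR adjusted p = 0.399).

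Higher accessibility was found at Il6st, which encodes gp130, the signalling chain shared by interleukin-6, interleukin-11 and related cytokines. Its promoter region chr13:112463356-112465272, which contains the Il6st sequence above, held 63.9, 70.5 and 68.2 CPM in young replicates 1 to 3 and 87.4, 82.6, 87.3 and 93.4 CPM in aged replicates 1 to 4 (log2 fold change 0.38, standard error 0.104, edgeR adjusted p = 0.0484). All aged samples were above all young ones, by a factor smaller than at the reduced regions, and the call was the least stable of the 14, kept in 5 of 21 alternative fits. With offsets fitted on mean abundance the log2 fold change was 0.089 (edgeR adjusted p = 0.690). A second Il6st start site was at 6.602 ± 1.24 CPM in the young (SD, n = 3) and 7.03 ± 0.961 CPM in the aged samples (SD, n = 4) (log2 fold change 0.092), and the 4 regions in its introns and exons ran from -0.68 to -0.022.

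Ccl27a encodes a ligand of Ccr10 and its promoter region chr4:41773096-41774620 also lies in the downstream flank of Il11ra1. It held 33.8, 33.7 and 33.2 CPM in young replicates 1 to 3 and 46.03, 38.8, 46.9 and 48.7 CPM in aged replicates 1 to 4 (log2 fold change 0.43, standard error 0.116, edgeR adjusted p = 0.0451). The young samples were nearly equal, and each aged sample was higher. The call was kept in 7 of 21 alternative fits and in 1 of the 7 that left out a sample, and with offsets fitted on mean abundance the log2 fold change was 0.25 (edgeR adjusted p = 0.275). This region has 8 near-identical copies elsewhere in the genome, in a stretch where Ccl27, Ccl21 and Il11ra genes are duplicated, so the reads assigned to it are uncertain. Near-identical copies were found for 4 member regions and for 945 of all regions (1.70%).

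Higher accessibility was also called at regions of Cxcl16 and Il1f9. The downstream flank of Cxcl16, the ligand of Cxcr6, held a region chr11:70451591-70452515 that is the promoter of Med11, a Mediator subunit, with 53.7, 55.6 and 44.6 CPM in young replicates 1 to 3 and 72.3, 67.5, 72.6 and 75.5 CPM in aged replicates 1 to 4 (log2 fold change 0.48, standard error 0.112, edgeR adjusted p = 0.0274). Its call was kept in 13 of 21 alternative fits, 3 of the 7 without a sample among them, and with offsets fitted on mean abundance the log2 fold change was 0.23 (edgeR adjusted p = 0.251). The Cxcl16 promoter itself, shared with Zmynd15, was at 9.57 ± 0.459 CPM in the young (SD, n = 3) and 8.799 ± 1.38 CPM in the aged samples (SD, n = 4) (log2 fold change -0.11, edgeR adjusted p = 0.768). The region separated the ages, and it belongs to another gene. Of the 203 member regions, 20 lay only at promoters of genes outside the set, and 2 of these 20 (10%) were called, both higher. Of all promoter regions 6.54% were called, 4.48% higher, so this small count gives no result about these regions.

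Il1f9 encodes interleukin-36γ, an epithelial cytokine of the interleukin-1 family. Its exonic region chr2:24187332-24188623 held 15.5, 15.5 and 12.3 CPM in young replicates 1 to 3 and 21.2, 28.2, 20.1 and 21 CPM in aged replicates 1 to 4 (log2 fold change 0.63, standard error 0.167, edgeR adjusted p = 0.0422). Aged replicate 2 stood apart as the highest sample, and the other aged samples were still above the young ones. The call was kept in 7 of 21 alternative fits. Regions in its upstream flank at chr2:24181905-24183348 and chr2:24183903-24184360 also had every aged sample above every young one, with log2 fold changes of 0.69 and 0.90 (edgeR adjusted p = 0.0647 and 0.105), and the latter has a near-identical copy. Of the neighbouring genes of the cluster, Il1f5, Il1f6, Il1f8 and Il1f10 had no region and Il1rn had 3, none of them called.

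The TNF system held 15 regions, and 14 of them had a log2 fold change below 0, with a median of -0.43 and with 12 to 15 below 0 under the other scalings of the libraries. Over all regions 53.4% had a log2 fold change below 0. In 4 of the 15 every aged sample was below every young one and in 0 above, beside the 11.6% and 10.2% of all regions given earlier. Tnfrsf1b, which encodes TNF receptor 2, had 10 of these 15 regions, both calls and all 4 regions in which every aged sample was below. Tnf and Tnfrsf1a had 0 such regions. The region chr4:145208975-145209500 in its downstream flank held 4.998, 4.69 and 3.95 CPM in young replicates 1 to 3 and 1.49, 2.94, 2.33 and 1.53 CPM in aged replicates 1 to 4 (log2 fold change -1.22, standard error 0.307, edgeR adjusted p = 0.0362). An exonic region, chr4:145214072-145215130, held 16.01, 16.4 and 19.2 CPM in young replicates 1 to 3 and 8.697, 10.4, 11.9 and 10.9 CPM in aged replicates 1 to 4 (log2 fold change -0.72, standard error 0.174, edgeR adjusted p = 0.0309). Aged samples lay below young ones in both, while the Tnfrsf1b promoter overlapped, with 30.9, 38.1 and 45.1 CPM in young replicates 1 to 3 and 38.04, 34.7, 38.99 and 41.6 CPM in aged replicates 1 to 4 (log2 fold change 0.022, edgeR adjusted p = 0.943).

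Tnfrsf1a, the gene of TNF receptor 1, had 4 regions with log2 fold changes from -0.57 to -0.028, none of them called by edgeR with TMM. Its exonic region was called lower with offsets fitted on mean abundance, as given above. Its promoter held 55.1, 47.7 and 69.9 CPM in young replicates 1 to 3 and 39.97, 54.5, 52.8 and 60.2 CPM in aged replicates 1 to 4, with overlap and young replicate 3 the highest (log2 fold change -0.14, edgeR adjusted p = 0.606). Tnf had no promoter region. Its only region, in the downstream flank at chr17:35195252-35196368, held 9.16, 8.47 and 5.43 CPM in young replicates 1 to 3 and 4.39, 4.51, 5.37 and 8.02 CPM in aged replicates 1 to 4 (log2 fold change -0.48, edgeR adjusted p = 0.286). The ages overlapped there through young replicate 3 and aged replicate 4.

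**Figure D3:**
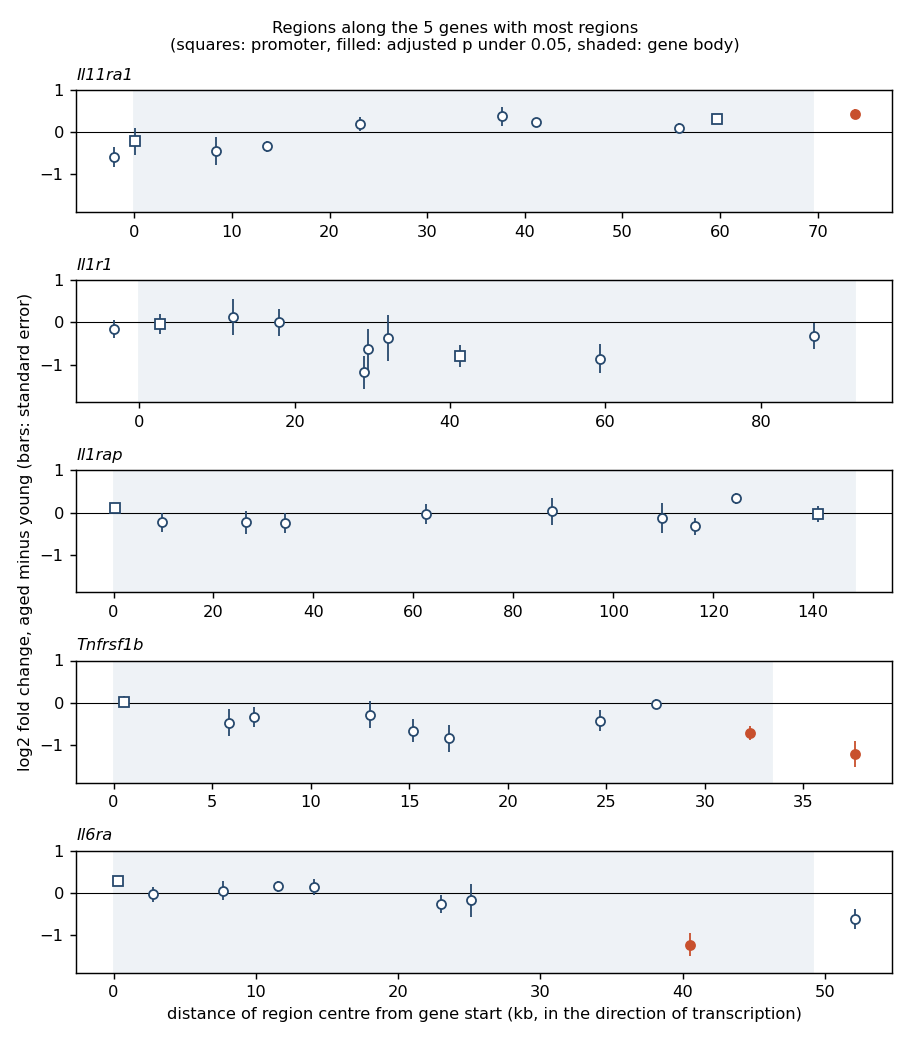
Log2 fold change, aged minus young, with its standard error (y axis) for regions of the 5 genes with most regions, 1 called Il11ra1 region left out, by the distance in kb of the region's centre from the gene's start (x axis), with squares for promoters, filled orange symbols for called regions and shading for the gene body. In Tnfrsf1b and Il6ra the called reductions lie far downstream of the promoter, whose value is 0.022 and 0.28, and the Il11ra1 region drawn as called, in the downstream flank, is higher in aged liver.

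The 5 genes with most regions were Il11ra1 with 11, Il1r1, Il1rap and Tnfrsf1b with 10 each and Il6ra with 9. The annotated Il11ra1 gene spans further genes, so 7 of its 11 regions are promoters of other genes, that of Ccl27a in its downstream flank included. Its main promoter region chr4:41758215-41761087 held 87.9, 78.5 and 74.98 CPM in young replicates 1 to 3 and 94.4, 89.8, 99.5 and 118 CPM in aged replicates 1 to 4. The aged samples were above the young ones, without a call (log2 fold change 0.32, edgeR adjusted p = 0.122). A distal start site, chr4:41699886-41700142, had 2 near-identical copies and overlapped between ages (log2 fold change -0.21).

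Il1r1, the signalling receptor for interleukin-1, had 8 of 10 log2 fold changes below 0 and no call. Its broad first promoter region, chr1:40224676-40230772, held 66.8, 60.1 and 115 CPM in young replicates 1 to 3 and 77.1, 56.7, 63.5 and 111 CPM in aged replicates 1 to 4. Young replicate 3 and aged replicate 4 were at 115 and 111 CPM and the other samples between 56.7 and 77.1 CPM, so the ages overlapped (log2 fold change -0.043, edgeR adjusted p = 0.934). A second start site, chr1:40265673-40267117, was at 15.3 ± 1.95 CPM in the young (SD, n = 3) and 8.56 ± 3.896 CPM in the aged samples (SD, n = 4) (log2 fold change -0.80, edgeR adjusted p = 0.0815) with overlap. Il1rap encodes the accessory chain for interleukin-1 and interleukin-33, and its 10 regions ran from -0.33 to 0.34, the promoter at 0.11, with no call.

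Among the 48 promoter regions of member genes, 3 were called, Il6st and Ccl27a higher and the internal Il4i1 start site lower. This is 6.25%, and 6.54% of all 15422 promoter regions were called, 4.48% higher and 2.06% lower. The median log2 fold change was -0.039 over the member promoters and 0.094 over all promoter regions. The ages did not overlap in 13 member promoters, 7 (14.6%) with the aged samples above and 6 (12.5%) below, where 20.4% and 8.88% of all promoter regions did so. DESeq2 called 3 higher and 1 lower, and of all 15422 promoter regions it called 1544 higher and 343 lower (12.2% in all).

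**Figure D4:**
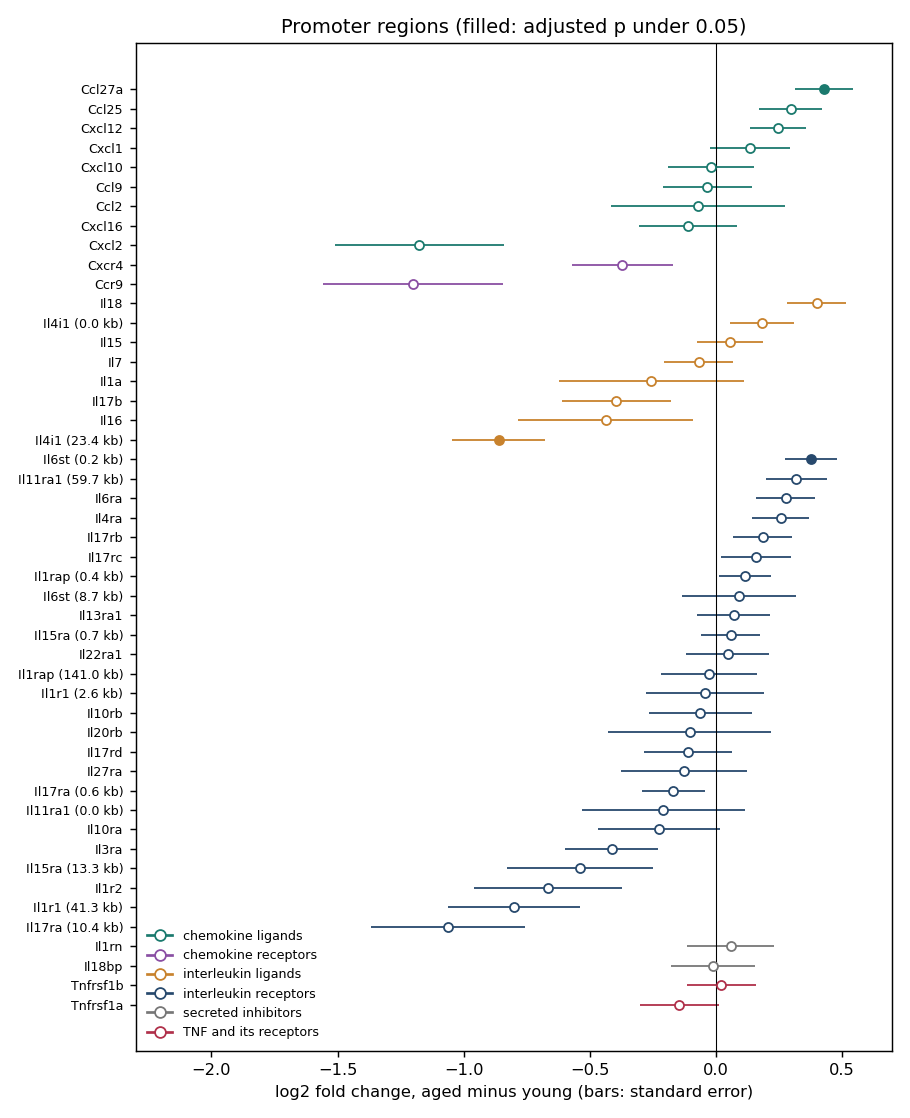
Log2 fold change, aged minus young, with its standard error (x axis) for the 48 promoter regions of member genes (y axis), coloured by role and filled where the edgeR adjusted p was under 0.05, with the distance from the gene's start where a gene has several. The values run from -1.20 at Ccr9 to 0.43 at Ccl27a, and 20 of the 48 are above 0.

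Of the 9 promoter regions of chemokine ligands, that of Ccl27a was called. The promoters of Cxcl1 and Cxcl2, genes for neutrophil attractants with the same NF-κB letters in the sequences above, gave different values. Cxcl1 held 52.7, 42.9 and 55.9 CPM in young replicates 1 to 3 and 46.6, 51.97, 48.1 and 73.4 CPM in aged replicates 1 to 4, with overlap (log2 fold change 0.14, edgeR adjusted p = 0.638). Cxcl2 held 3.24, 3.59 and 4.604 CPM in young replicates 1 to 3 and 2.02, 0.785, 1.401 and 2.04 CPM in aged replicates 1 to 4. Every aged sample was lower at Cxcl2, but the region was weak and fell short of the threshold (log2 fold change -1.18, standard error 0.334, edgeR adjusted p = 0.0533). The difference between these promoters was not tested.

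The Cxcl10 promoter, of an interferon-induced ligand of Cxcr3, held 15.2, 12.1 and 13.8 CPM in young replicates 1 to 3 and 13.3, 14.9, 14.2 and 11.7 CPM in aged replicates 1 to 4, with overlap (log2 fold change -0.020, edgeR adjusted p = 0.958). Ccl2, which attracts monocytes, held 7.78, 5.52 and 2.47 CPM in young replicates 1 to 3 and 5.27, 2.75, 6.07 and 6.36 CPM in aged replicates 1 to 4, with a spread between young samples larger than the difference between ages (log2 fold change -0.072, standard error 0.346, edgeR adjusted p = 0.924). The region at Ccl25, a ligand of Ccr9, is also the promoter of Elavl1 and was at 43 ± 5.07 CPM in the young (SD, n = 3) and 53.1 ± 5.78 CPM in the aged samples (SD, n = 4) (log2 fold change 0.30, edgeR adjusted p = 0.162). Ccl5 had no promoter region, and a region in its upstream flank was lower in every aged sample without a call (log2 fold change -0.69, edgeR adjusted p = 0.0735).

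None of the 18 regions of chemokine receptor genes was called by edgeR or DESeq2, and 7 (38.9%) had an unadjusted p under 0.05, beside the 24.6% of all regions. Both promoter regions in this role were lower in every aged sample. At Ccr9, a gut-homing receptor, the region lies at a distal GENCODE start site that is also the promoter of Slc6a20a, while the RefSeq start site of Ccr9 had no region. It held 2.87, 2.61 and 2.96 CPM in young replicates 1 to 3 and 1.58, 0.785, 1.63 and 0.764 CPM in aged replicates 1 to 4. This weak region separated the ages without a call (log2 fold change -1.20, standard error 0.357, edgeR adjusted p = 0.0610). At Cxcr4 the promoter held 11.2, 12.5 and 11.3 CPM in young replicates 1 to 3 and 7.29, 10.2, 7.704 and 11.1 CPM in aged replicates 1 to 4, where aged replicate 4 was close to the lowest young sample (log2 fold change -0.37, edgeR adjusted p = 0.269).

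Interleukin ligand promoters were found for Il1a, Il4i1, Il7, Il15, Il16, Il17b and Il18. Of these 8 promoter regions edgeR called 0 higher and 1 lower, and DESeq2 called 1 higher and 1 lower. Of all promoter regions edgeR called 6.54% and DESeq2 12.2%. Il18, whose product is processed by inflammasomes, shares its promoter region with the carotenoid oxygenase gene Bco2, and it held 33.4, 27.8 and 30.7 CPM in young replicates 1 to 3 and 38.8, 41.6, 41.1 and 39.96 CPM in aged replicates 1 to 4. All aged samples were higher, and the difference fell short of the threshold (log2 fold change 0.40, standard error 0.116, edgeR adjusted p = 0.0576). Its inhibitor gene Il18bp was at 17.8 ± 2.62 CPM in the young (SD, n = 3) and 17.4 ± 2.35 CPM in the aged samples (SD, n = 4) (log2 fold change -0.012, edgeR adjusted p = 0.975), and Il1rn at 13.2 ± 2.35 CPM in the young (SD, n = 3) and 13.9 ± 0.861 CPM in the aged samples (SD, n = 4) (log2 fold change 0.058, edgeR adjusted p = 0.870). The samples of both ages overlapped at both inhibitor promoters.

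Il7 and Il15 encode cytokines that maintain lymphocytes. Il15 was at 21.6 ± 0.374 CPM in the young (SD, n = 3) and 22.6 ± 1.24 CPM in the aged samples (SD, n = 4) and Il7 at 29.3 ± 3.33 CPM in the young (SD, n = 3) and 28 ± 3.09 CPM in the aged samples (SD, n = 4), with log2 fold changes of 0.056 and -0.068 (edgeR adjusted p = 0.832 and 0.797), both with overlap. The Il17b promoter held 7.68, 7.82 and 8.55 CPM in young replicates 1 to 3 and 6.501, 6.47, 6.77 and 4.71 CPM in aged replicates 1 to 4. Its aged samples lay below the young ones, aged replicate 4 lowest by far, and it was not called (log2 fold change -0.39, edgeR adjusted p = 0.277). Il33, an alarmin gene, had no promoter region and 5 intronic regions with log2 fold changes from -0.48 to 0.58, none of them called.

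The interleukin receptor promoters numbered 25, and that of Il6st was the only call. The promoter of Il4ra, the shared chain for interleukin-4 and interleukin-13, held 71.5, 69.01 and 74.5 CPM in young replicates 1 to 3 and 77.3, 81.4, 85.2 and 98 CPM in aged replicates 1 to 4. Its aged samples were all above the young ones, without a call (log2 fold change 0.26, edgeR adjusted p = 0.177). Il17rb, the receptor for interleukin-25, shares its promoter region with Chdh and was at 113 ± 9.31 CPM in the young (SD, n = 3) and 129 ± 13.1 CPM in the aged samples (SD, n = 4) (log2 fold change 0.19, edgeR adjusted p = 0.347). The lowest log2 fold changes in this role were those of internal start sites of Il17ra and Il1r1 given above and of the decoy receptor Il1r2, at 5.64 ± 0.407 CPM in the young (SD, n = 3) and 3.54 ± 1.41 CPM in the aged samples (SD, n = 4) (log2 fold change -0.66, edgeR adjusted p = 0.180).

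The direction of the difference went with the strength of the region, in the members and in the whole table. All regions were divided into tertiles of mean log2 CPM, at 2.399 and 3.95. In the strongest tertile, 5 of 74 member regions were called higher and 1 lower, with a median log2 fold change of 0.13, and of all 18560 regions there 1140 (6.14%) were higher and 150 (0.808%) lower. In the weakest tertile 0 of 60 member regions were called higher by edgeR or DESeq2 and 4 lower, with a median of -0.40, and of all regions there 62 (0.334%) were higher and 1122 (6.05%) lower. The middle tertile held 69 member regions, 0 higher and 4 lower by edgeR, and 1 higher and 4 lower by DESeq2, and of all regions there edgeR called 158 (0.851%) higher and 566 (3.05%) lower. Every aged sample was above every young one in 20 member regions of the strongest tertile (27.0%) and in 0 of the weakest, where 25.0% and 1.54% of all regions did so. Every aged sample was below in 4 (5.41%) and 15 (25%), beside 3.10% and 19.1% of all regions. With offsets fitted on mean abundance the member medians were -0.030 in the strongest and -0.084 in the weakest tertile, and the log2 fold changes of the promoters of Cxcl1, Cxcl12, Il4ra and Il17rb, above 0 with TMM alone, were -0.093, -0.089, -0.035 and -0.17.

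**Figure D5:**
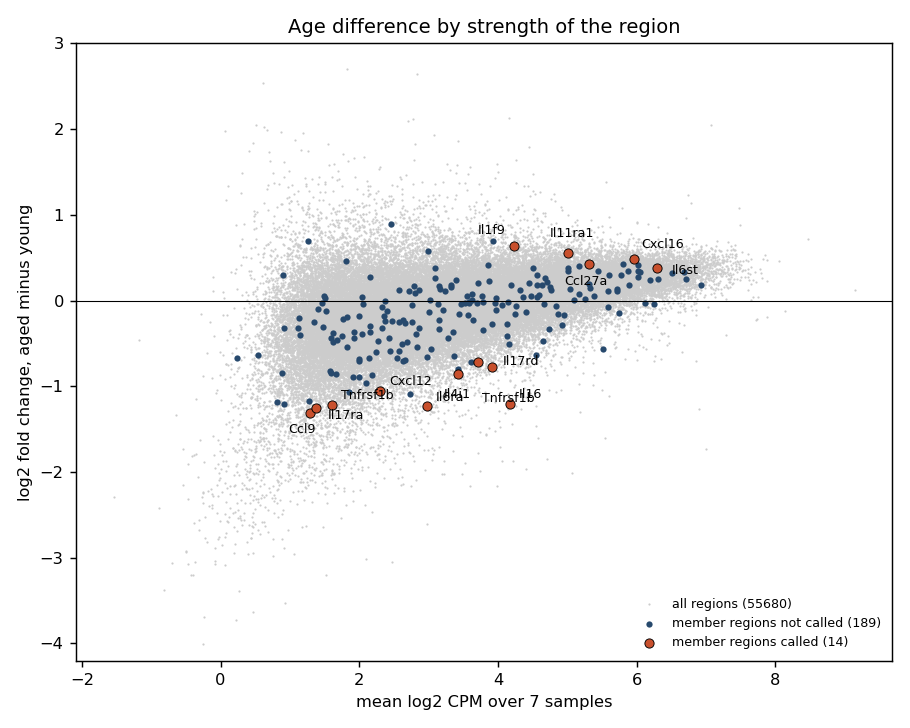
Log2 fold change, aged minus young (y axis), against mean log2 CPM over the 7 samples (x axis) for all 55680 regions in grey, the 189 member regions not called in blue and the 14 called ones in orange. The 5 called increases lie among strong regions and most of the 9 called decreases among weaker ones, along the trend of the grey points.

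By position, the calls were 3 of 48 promoter regions, 4 of 31 exonic, 2 of 73 intronic, 5 of 27 downstream and 0 of 24 upstream regions, with DESeq2 calling 2 higher upstream and 8 upstream regions at an unadjusted edgeR p under 0.05. Of all regions outside promoters 5.44% were called, 1.66% higher and 3.78% lower, with a median of -0.091. Of the 135 member regions at no promoter of any gene, 8 were called lower and 1 higher (6.67% in all), and their log2 fold changes had a median of -0.19. The rule ended 5000 bp from the gene. The outermost regions inside it were at Ccr7, Il17ra and Il17b, with log2 fold changes of 0.011, -1.25 and 0.22, and the nearest outside it were at Il27, Ccl25 and Il21r, with -0.047, 0.10 and -1.15. The 51 flank regions inside the rule had 1 called higher and 4 lower and a median of -0.13. Between 5 and 10 kb from a member gene lay 45 further regions, with 1 called higher and 0 lower and a median of -0.0048. These small counts stand beside the 1.66% higher and 3.78% lower of all regions outside promoters.

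The NF-κB consensus was found in the middle 300 bases of 9 of 47 member promoter regions long enough to be searched (19.1%) and of 5.604% of all 15257 such promoter regions. Of the 9, Il6st was called higher, and the log2 fold changes of the others ran from -1.18 at Cxcl2 through -0.80 at the internal Il1r1 start site to 0.40 at Il18, with a median of -0.034 over the 9. Over the 38 others of the 47 the median was -0.035. Outside promoters it was found in 7 of 132 member regions (5.30%) and in 3.04% of all regions. STAT motifs were in 7 of the 47 member promoter regions (14.9%) and 6.23% of all, and PU.1 in 0 of 47 and 2.08% of all.

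Downstream signalling genes were read from the promoter region of highest mean CPM of each gene. All 21 genes of interleukin-1 and TNF signalling had one, the median log2 fold change was 0.14, and 1 (4.76%) was called, beside 6.54% of all promoter regions. The medians over all promoter regions and over the strongest tertile of all regions were 0.094 and 0.17. The gene called was Traf2, the adaptor that binds TNF receptor 2, which rose by 0.62 on the log2 scale (standard error 0.121, edgeR adjusted p = 0.0146), with 39.1 ± 2.42 CPM in the young (SD, n = 3) and 60.1 ± 6.898 CPM in the aged samples (SD, n = 4). The NF-κB genes Rela (0.083), Nfkb1 (0.14) and Nfkbia (0.25) and the inhibitor Tnfaip3 (0.011) were not called. Of 15 JAK, STAT and SOCS genes, 14 had a promoter region, Stat4 being the exception, with a median of 0.26 and 1 call (7.14%). This was Cish, a feedback inhibitor of cytokine receptors that act through STAT5, which rose by 0.71 on the log2 scale (standard error 0.144, edgeR adjusted p = 0.0169), with 67.4 ± 14.1 CPM in the young (SD, n = 3) and 111 ± 12.9 CPM in the aged samples (SD, n = 4). Stat3, which transmits the gp130 signal, had a log2 fold change of 0.49 (edgeR adjusted p = 0.0960), and its feedback inhibitor Socs3 one of -0.0095 (edgeR adjusted p = 0.977). DESeq2 called 4 of these 14 genes higher, beside the 1544 of all 15422 promoter regions that it called higher. Of 11 atypical chemokine receptor and further chemokine genes, 4 had a promoter region, Ackr2, Ccrl2, Cx3cl1 and Pf4, with log2 fold changes from -0.80 to 0.15 and 0 calls by edgeR or DESeq2, with 1 at an unadjusted p under 0.05.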

How the data were processed

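ATAC-seq libraries of 3 young and 4 aged mouse liver samples were analysed, the aged ones from 3 animals. The authors trimmed reads with cutadapt 1.13, aligned them to GRCm38 with Bowtie2 2.4.1, removed duplicates, mitochondrial reads and reads of low mapping quality, called peaks per library with MACS2 2.2.7, and kept regions whose peak was seen in 2 or more libraries. They deposited raw counts per region from featureCounts, not normalized. Totals ranged from 4474652 to 25461110 reads in regions, and the counting precision of a CPM follows from them.

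Regions were assigned to GENCODE M21 genes with Python 3.11.15 (pandas 2.3.3, numpy 2.4.6) and tested with edgeR 4.0.16 in R 4.3.3 (TMM normalization, the quasi-likelihood test with age as its factor, no filter on low counts), with a prior count of 2 for log2 CPM. The test reports no standard error. The one given is the size of the log2 fold change divided by the square root of the test's F statistic, and is approximate. The fit was tested on simulated data with 200 changed regions of 55680 for aged against young, of which it recovered 96.5% among 201 calls with 3.98% false. The changes put in were larger than that of any called member region and were placed in regions above a minimum mean CPM. All simulated samples were independent. The shares recovered and false therefore do not carry over to the smaller differences reported here. The counts of the 9 pairs of libraries of the same age differed by more than sampling noise (chi-square per degree of freedom of 2.40 to 6.07). Near-identical copies were other places covering at least 80% of a region at 95% identity in minimap2 2.31, and bedtools 2.31.1, samtools 1.23.1 and matplotlib 3.10.9 were used. Promoter sequences came from RefSeq.

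The regions named are every called member region except 1 that is not reported here, in each role the 5 promoter regions of highest mean log2 CPM and, among promoters whose ages did not overlap, the 2 that increased and the 2 that decreased most, the 5 genes with most regions, and Tnf, Il6, Il1b, Il1rn, Il10, Il18, Ccl2, Cxcl10, Cxcl12, Il6ra, Il6st, Tnfrsf1a and Tnfrsf1b. Further regions were named after their values were seen, where they are neighbours of these. The members and lists were chosen with earlier results of these data known. Alternatives were DESeq2 1.42.0, other normalizations and filters, leaving out each sample, summing pairs of aged samples, a replicate block and other windows.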

Additional observations from a re-analysis of the deposited data

Results flagged for a closer look

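In 38 named regions the 4 aged samples were searched for a sample far from the other aged ones (gap to the nearest sample over the whole range above Dixon's 95% value), which chance gives in about 1 in 20 groups. It was met in 2. At the Il17b promoter, aged replicate 4 had 2.29 log2 CPM, while the other aged samples had 2.74 to 2.80 and the young ones 2.98 to 3.13. At the exonic region of Il1f9, aged replicate 2 had 4.83 log2 CPM, while the other aged samples had 4.34 to 4.42 and the young ones 3.65 to 3.97.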

How the results depend on the processing

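Every call at a member region depended on the processing. At an adjusted p under 0.01 edgeR called 0 member regions higher and 0 lower (67 at an unadjusted p under 0.05). Given as higher and lower among all member regions and then among promoters, the calls were 10 and 9, 3 and 1 with DESeq2, 0 and 18, 0 and 5 with total counts, 0 and 3, 0 and 0 with offsets on mean abundance, 22 and 11, 8 and 3 with offsets on GC content, 1 and 7, 0 and 1 with at least 10 counts in every sample (177 regions tested), 3 and 5, 1 and 1 after thinning to the smallest total, 5 and 9, 2 and 1 with filterByExpr, and 4 and 9, 1 and 1 without near-identical copies. Within gene bodies alone 4 were higher and 5 lower. Leaving out 1 sample gave 0 to 6 higher and 0 to 22 lower, 0 to 2 and 0 to 5 among promoters. With aged samples summed in pairs the calls were 3 and 6, 1 and 1 for 1 with 2, 0 and 2, 0 and 0 for 1 with 3, 3 and 13, 0 and 2 for 1 with 4, 2 and 6, 0 and 1 for 2 with 3, 7 and 16, 2 and 4 for 2 with 4, and 2 and 6, 0 and 1 for 3 with 4. The 14 calls were all kept with DESeq2, filterByExpr, GC offsets and the sum of aged 2 and 4. The share of all regions called moved as well. It was 8.42% with DESeq2, 6.24% with total counts, 1.25% with offsets on mean abundance and 13.3% with offsets on GC content. With at least 10 counts it was 2.80%, after thinning 3.44% and with filterByExpr 5.59%. Leaving out 1 sample gave 0.338% to 7.60%, and summed pairs gave 1.73% (1 with 3) to 8.52% (2 with 4). The cause was not tested.

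The sign changed for some promoter regions, none of them called. Offsets on mean abundance gave a log2 fold change of 0.16 at Ccl2, 0.00019 at Cxcl10, -0.093 at Cxcl1, -0.089 at Cxcl12, -0.016 at Il15, -0.17 at Il17rb, -0.061 at the first Il4i1 start site, -0.035 at Il4ra and -0.15 at Tnfrsf1b. GC offsets gave 0.062 at Ccl2, 0.082 at Cxcl10, 0.15 at Il18bp and 0.048 at Il1r1. Total counts gave -0.062 at Il15, -0.058 at Il1rn and -0.10 at Tnfrsf1b, and DESeq2 gave 0.011 at Cxcl10 and 0.023 at Il18bp. The filter of 10 counts gave -0.018 at Tnfrsf1b, and thinning gave 0.043 at Cxcl10 and -0.0079 at Tnfrsf1b. Summed pairs gave 0.023 at Ccl2, 0.026 at Il18bp and 0.035 at Il1r1 (1 with 2), 0.011 at Il1r1 (1 with 3), 0.013 at Cxcl10 and -0.00091 at Tnfrsf1b (1 with 4), 0.013 at Il18bp and 0.044 at Il1r1 (2 with 3) and 0.022 at Il18bp (2 with 4). Without 1 sample the ranges were -0.34 to 0.28 at Ccl2, -0.033 to 0.22 at Cxcl1, -0.11 to 0.069 at Cxcl10, -0.13 to 0.099 at Il18bp, -0.27 to 0.30 at Il1r1, -0.016 to 0.23 at Il1rn, -0.14 to 0.033 at Il7, -0.27 to 0.021 at Tnfrsf1a and -0.10 to 0.16 at Tnfrsf1b.

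The replicate numbers did not pair the samples, since the deviations of same-numbered samples correlated at -0.12, 0.056 and 0.030 and not every sample correlated best with its own number. With the number as a replicate block, 6 member regions were higher and 21 lower, 0 and 3 among promoters, 11 of the 14 calls were kept, and the log2 fold changes at Cxcl1, Cxcl10 and Tnfrsf1b were -0.035, 0.044 and -0.0051. Of all regions, 7.32% were called with this block. In the weakest member regions single aged libraries held few reads, so differences there were at the limit of depth.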
